A study of Arabidopsis thaliana with 12 samples.

Results

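The UV-C response of *jac1* rosettes was compared gene by gene with that of wild-type rosettes of *Arabidopsis thaliana*. The quantity described is the interaction, which is the log2 fold change with UV-C in *jac1* minus the log2 fold change with UV-C in the wild type, taken from 1 model over all 12 samples. All 20021 nuclear protein-coding genes that passed a filter on low counts were members, out of 20101 protein-coding genes tested in all; the rest were encoded in the organelles. The interaction was called where the false discovery rate was under 0.01 and the absolute log2 value over 1, and 780 nuclear genes passed. Called genes were sorted by the responses of the genotypes into stronger in *jac1* (same sign, larger in *jac1*), weaker in *jac1* (same sign, smaller in *jac1*) and opposite direction (different signs), and each class was divided by whether expression went up ("rise") or down ("fall") with UV-C in *jac1*.

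Whole rosettes of 4-week-old plants made up 4 groups of 3 biological replicates, each pooled from at least 4 rosettes. These were *jac1* after UV-C, *jac1* without treatment, wild type after UV-C and wild type without treatment. UV-C was a single dose of 100 mJ cm-2, with harvest 30 min later, and all plants were grown under an 8 h photoperiod at a photon flux density of 80 µmol m-2 s-1. Both genotypes carried the *gl1* allele in the Columbia-0 background, so the wild type here is a hairless line, and the mutant is represented by the *jac1-1* line alone. Poly-T beads were used to select the RNA, and the hour of day at which each group was harvested is not given in the sources used here.

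JAC1 is a J-domain protein of the auxilin type that plants need to move chloroplasts towards weak light, downstream of the blue-light receptors called phototropins. UV-C lies outside the sunlight that reaches the ground and is used in the laboratory to damage DNA and the photosynthetic apparatus and to set off reactive oxygen signals. An interaction near 0 means that both genotypes changed by the same factor. A positive value means that *jac1* ended higher, relative to its own non-treated level, than the wild type did.

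Counted reads ranged from 21939540 to 27194762 per library in UV-C treated *jac1*, from 33999174 to 39098227 in non-treated *jac1*, from 20897905 to 24461667 in UV-C treated wild type and from 34496078 to 40445085 in non-treated wild type. The normalization factors (TMM) were 0.825 to 0.856 in UV-C treated *jac1*, against 0.995 to 1.15 over the other groups, and they decide how many calls are positive, as given below. *JAC1* (AT1G75100, chromosome 1 from 28190740 to 28194068) had 169, 181 and 168 CPM in UV-C treated *jac1*, 135, 161 and 157 in non-treated *jac1*, 128, 152 and 148 in UV-C treated wild type and 88.1, 93.8 and 99.2 in non-treated wild type, where CPM is the read count scaled to a common library size with the TMM factors. Its reads were not fewer in the *jac1* libraries, so they do not show which libraries carry the mutation. Among marker lists, mesophyll genes summed to 30660 to 41661 CPM of counted reads over all libraries, while 1 of 4 root markers was at 0 in every library and the 3 seed markers were each under 1 CPM. The mesophyll sum hides changes of its genes. *LHCB1.1*, a called gene, had 875 to 1661 CPM of counted reads in non-treated wild type and 13846 to 15467 in UV-C treated *jac1*. *RBCS1A*, *CA1* and *RCA* were each lower in UV-C treated *jac1* than in non-treated wild type. Guard cell markers summed to 22.7 to 27.1 CPM of counted reads in UV-C treated *jac1*, 66.2 to 74.3 in non-treated *jac1*, 29.6 to 30.7 in UV-C treated wild type and 64.9 to 69.8 in non-treated wild type. Flower markers summed to 0.572 to 0.775 in UV-C treated *jac1*, 0.559 to 0.793 in non-treated *jac1*, 2.72 to 3.60 in UV-C treated wild type and 2.87 to 4.14 in non-treated wild type. The part of these in the results below was not tested, and in whole rosettes fewer cells of a type cannot be told apart from less RNA per cell.

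The 780 called genes were 3.90% of the nuclear genes tested. Of them 425 had a positive interaction (2.12% of those tested) and 355 a negative one (1.77%). Under scaling by library size only, the median interaction of all nuclear genes moved to -0.16, against 0.005 with TMM, and 36.3% of the calls were positive, against 54.5% with TMM. Responses of opposite sign made up the largest class, with 444 genes (2.22%), of which 255 went up and 189 down in *jac1*. Responses stronger in *jac1* numbered 264 (1.32%), 143 up and 121 down. Responses weaker in *jac1* numbered 72 (0.360%), 45 up and 27 down. Among genes past the minimum fold, the called gene nearest to the limit on the false discovery rate was *LOG3* (interaction 1.93, adjusted p = 0.00987 by edgeR). The nearest one outside that limit was *RK1* (interaction 1.84, adjusted p = 0.01002 by edgeR).

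The class depends on the sign of small responses in many genes. Of the 444 genes with opposite signs, 151 had a response in each genotype that passed a false discovery rate of 0.01 on its own, 207 only in *jac1*, 78 only in the wild type and 8 in neither. Of the 264 stronger genes 112 passed in each genotype and 152 only in *jac1*. Of the 72 weaker genes 39 passed in each genotype and 33 only in the wild type. A class name therefore does not mean that both genotypes responded. For comparison, 48.2% of all nuclear genes passed that rate in *jac1* and 34.4% in the wild type, without a minimum fold. The wild-type response was under 0.5 on the log2 scale in 212 of the 444 genes and the *jac1* response in 82. When only the 151 genes were kept as opposite and the others were placed by size, the stronger class held 476 genes and the weaker class 153. Samples that did not overlap, in opposite directions in the genotypes, were found for 262 of the 444 genes, against 844 (4.22%) of all nuclear genes.

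**Figure D1:**
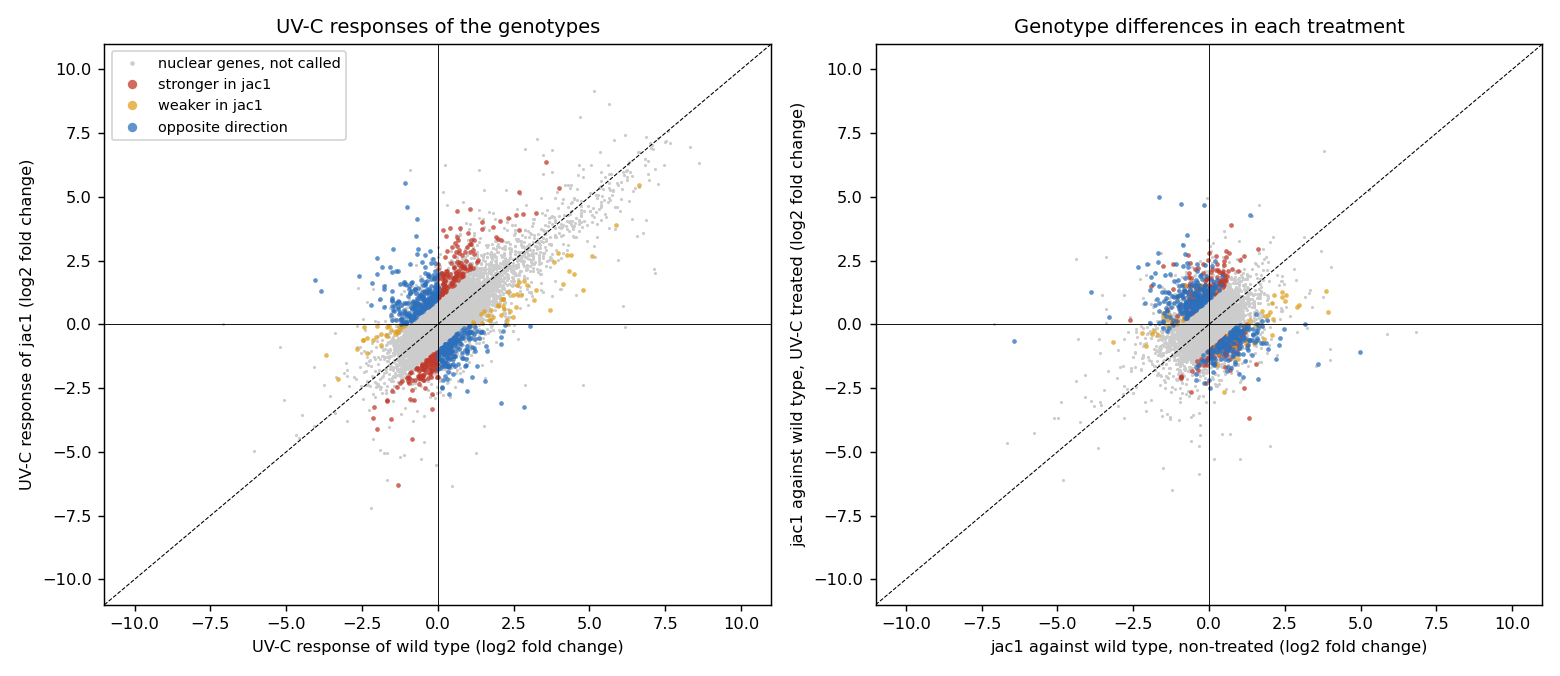
UV-C response of *jac1* against that of the wild type (left, log2 fold change) and the difference between *jac1* and the wild type after UV-C against the same difference without treatment (right, log2 fold change), 1 point per nuclear gene, with called genes coloured by class and the dashed line marking equal values. In the left panel the 444 genes of opposite direction fill the upper left and lower right quadrants, and in the right panel most called genes lie where the genotype difference changes sign with UV-C (629 of 780).

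Looked at as genotype differences, 629 of the 780 called genes (80.6%) had differences between *jac1* and the wild type of opposite sign without treatment and after UV-C, against 39.6% of all nuclear genes. All of these values share samples, so the shares describe the called genes only. The difference was larger without treatment than after UV-C in 33.2% of all nuclear genes. The share was higher in weaker rises (35 of 45), weaker falls (20 of 27) and opposite falls (99 of 189), and lower in stronger rises (12 of 143). In opposite rises (72 of 255, 28.2%) and stronger falls (35 of 121, 28.9%) it was near that of all nuclear genes. The samples of exactly 1 group lay beyond all 9 other samples in 411 of the 780 genes (52.7%), against 41.1% of all nuclear genes. That group was UV-C treated *jac1* in 215 called genes (27.6%, against 20.9% of all nuclear genes) and non-treated *jac1* in 82 (10.5%, against 5.95%). It was UV-C treated wild type in 49 (6.28%, against 8.38%) and non-treated wild type in 65 (8.33%, against 5.90%).

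Promoters of the called genes were searched for 6 motifs, since these letters were not used to choose the genes. The window was the 250 bases before the annotated transcript start of 20020 nuclear genes, both strands were read, and the TAIR10.1 sequence and annotation of RefSeq were used. The evening element core (AAATATCT), which is bound by morning-expressed MYB-like clock proteins, was found in 1001 windows (5.0% of all); no test was made on motifs. It stood in 17.4% of the windows of genes with a positive interaction and 3.94% of those with a negative one. By division it was found in 10 of 27 weaker falls (37.0%), 45 of 255 opposite rises (17.6%) and 19 of 143 stronger rises (13.3%), but in 7 of 189 opposite falls (3.70%), 1 of 45 weaker rises (2.22%) and 6 of 121 stronger falls (4.96%). The I-box (GATAAG), known from light-regulated promoters, was found in 28% of stronger rises and 20.8% of opposite rises, against 12.5% of all windows. The G-box (CACGTG), a site for bZIP and bHLH proteins, was in 14.7% of stronger rises, 3.31% of stronger falls and 7.54% of all windows. The rapid stress response element core (CGCGTT) was in 8 of 45 weaker rises (17.8%), against 2.96% of all windows. The W-box (TTGACC or TTGACT), bound by WRKY factors, was in 24.7% of called genes and 28.2% of all windows, and the GCC-box (GCCGCC), bound by ERF factors, in 1.67% of called genes and 1.92% of all windows. None of the motifs is contained in another, and a match describes the letters only.

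**Figure D2:**
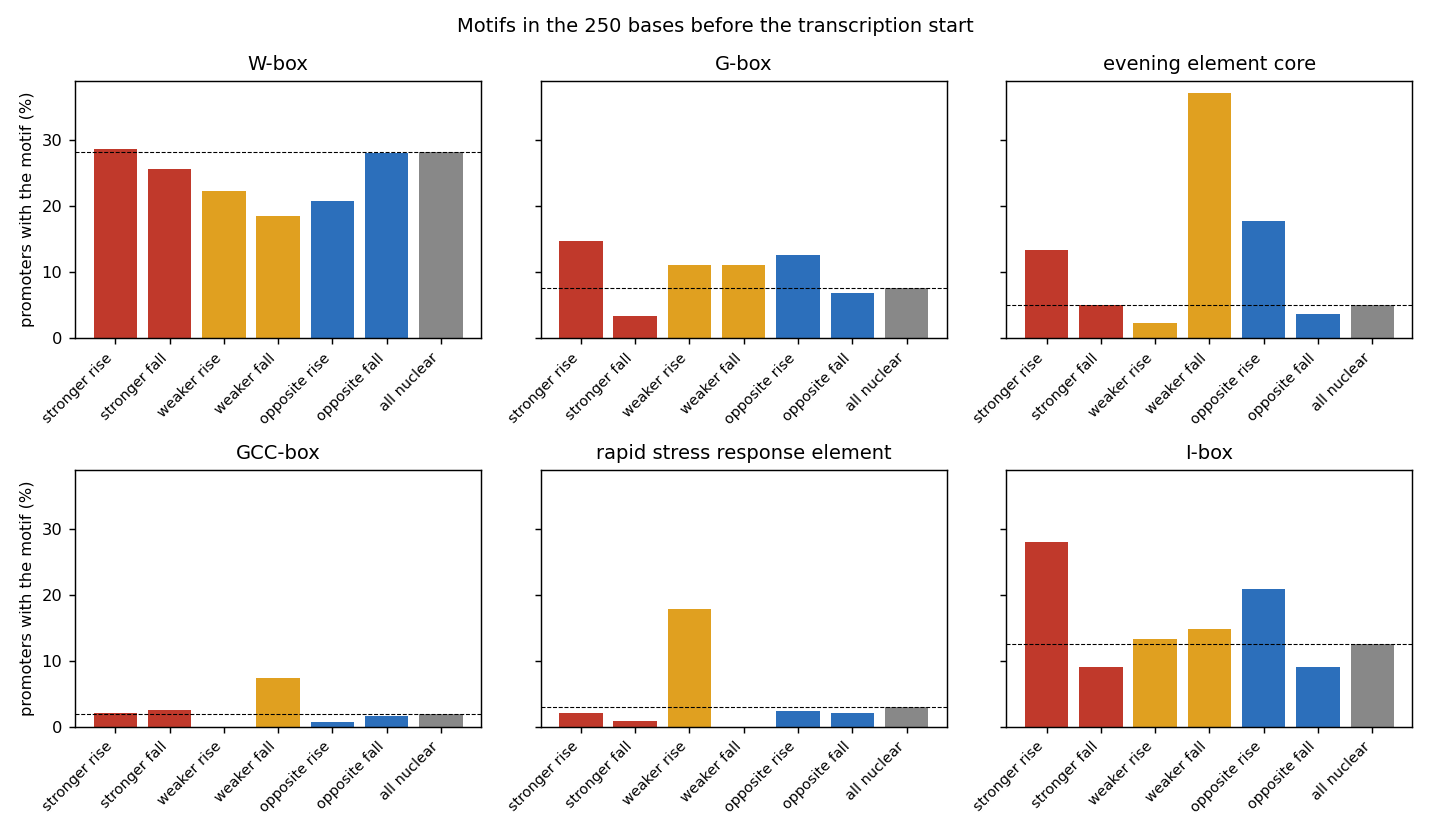
Share of promoters (y axis, percent) that hold each of 6 motifs in the 250 bases before the transcript start, for the 6 divisions of called genes and for all nuclear genes tested (grey bar and dashed line). The evening element core reaches 37.0% of weaker falls and 17.6% of opposite rises, the I-box 28% of stronger rises and the rapid stress response element 17.8% of weaker rises.

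These 8 windows are printed because they hold the evening element core before large opposite rises, a large weaker fall (AT4G16146) or clock genes, or stand for another motif; capitals mark the motif of either strand, and each sequence is written 5′ to 3′ towards the transcript start on the strand of the gene.
ERF53 (chr2:8985709-8985958, + strand): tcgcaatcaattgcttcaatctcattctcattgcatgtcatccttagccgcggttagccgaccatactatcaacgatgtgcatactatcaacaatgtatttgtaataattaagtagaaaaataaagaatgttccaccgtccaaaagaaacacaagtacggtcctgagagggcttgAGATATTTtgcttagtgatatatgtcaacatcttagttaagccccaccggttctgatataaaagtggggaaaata
AT4G28140 (chr4:13975920-13976169, - strand): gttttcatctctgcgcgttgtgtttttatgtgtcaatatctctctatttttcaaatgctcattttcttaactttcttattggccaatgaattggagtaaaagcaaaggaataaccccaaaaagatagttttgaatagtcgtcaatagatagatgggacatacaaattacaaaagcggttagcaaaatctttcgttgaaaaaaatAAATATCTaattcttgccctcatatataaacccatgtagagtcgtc
PRR5 (chr5:8358547-8358796, - strand): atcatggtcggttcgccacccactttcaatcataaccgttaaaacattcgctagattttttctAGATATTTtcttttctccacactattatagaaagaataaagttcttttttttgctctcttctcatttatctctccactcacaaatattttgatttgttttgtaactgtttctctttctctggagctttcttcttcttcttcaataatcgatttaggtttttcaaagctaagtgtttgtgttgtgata
FKF1 (chr1:25508389-25508638, + strand): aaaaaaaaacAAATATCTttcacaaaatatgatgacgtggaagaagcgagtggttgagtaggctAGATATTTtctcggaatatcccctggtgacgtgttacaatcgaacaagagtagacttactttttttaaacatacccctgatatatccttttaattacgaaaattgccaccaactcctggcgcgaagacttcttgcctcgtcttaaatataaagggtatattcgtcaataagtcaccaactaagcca
TOC1 (chr5:24674713-24674962, + strand): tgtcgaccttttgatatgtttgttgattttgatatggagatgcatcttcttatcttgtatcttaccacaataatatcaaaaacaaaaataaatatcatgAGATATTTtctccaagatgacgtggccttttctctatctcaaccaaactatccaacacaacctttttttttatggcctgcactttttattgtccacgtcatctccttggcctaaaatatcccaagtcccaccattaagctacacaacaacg
AT4G16146 (chr4:9144584-9144833, - strand): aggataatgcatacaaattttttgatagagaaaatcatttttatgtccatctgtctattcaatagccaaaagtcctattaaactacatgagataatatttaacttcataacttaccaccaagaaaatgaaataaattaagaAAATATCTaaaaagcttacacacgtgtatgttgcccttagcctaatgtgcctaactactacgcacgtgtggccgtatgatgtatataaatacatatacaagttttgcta
PHI-1 (chr1:12851733-12851982, + strand): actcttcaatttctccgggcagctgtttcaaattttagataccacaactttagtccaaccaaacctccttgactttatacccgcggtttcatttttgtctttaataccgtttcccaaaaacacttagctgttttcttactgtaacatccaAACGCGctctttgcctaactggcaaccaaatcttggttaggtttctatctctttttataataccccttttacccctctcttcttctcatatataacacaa
ERD14 (chr1:28587928-28588177, - strand): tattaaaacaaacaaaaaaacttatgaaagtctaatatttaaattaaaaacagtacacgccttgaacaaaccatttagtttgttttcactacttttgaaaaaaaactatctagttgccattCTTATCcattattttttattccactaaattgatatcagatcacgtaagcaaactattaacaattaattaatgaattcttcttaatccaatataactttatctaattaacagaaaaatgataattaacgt
In the first 6 the capitals are the evening element core, in *PHI-1* the rapid stress response element and in *ERD14* the I-box. *FKF1* holds the evening element core 2 times, and the others hold their marked motif once. Other motifs searched for are left in lower case, such as the G-box in AT4G16146 and the W-box in *PHI-1*.

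The largest positive interaction of all called genes belonged to a transcription factor that was nearly absent outside UV-C treated *jac1*. *ERF53* (AT2G20880), a drought-induced factor of the AP2/ERF family, had 3.21, 4.82 and 7.5 CPM in UV-C treated *jac1*, 0.0968, 0.109 and 0.114 in non-treated *jac1*, 0.0450, 0.267 and 0.159 in UV-C treated wild type and 0.130, 0.118 and 0.808 in non-treated wild type. All 3 UV-C treated *jac1* samples lay above the other 9, in which *ERF53* stayed under 1 CPM and UV-C treated wild type overlapped both non-treated groups. Its interaction was 6.64 (standard error 1.07, Benjamini-Hochberg adjusted p = 0.000585 by edgeR). In the group with the fewest reads *ERF53* had at most 4 per library, so the size of this value is uncertain. A related AP2/ERF gene, AT4G28140, had 6.47, 9.06 and 13.6 CPM in UV-C treated *jac1*, 0.266, 0.736 and 0.171 in non-treated *jac1*, 0.270, 0.533 and 0.264 in UV-C treated wild type and 1.04, 0.355 and 0.808 in non-treated wild type. Again the 3 UV-C treated *jac1* samples lay above the other 9, which overlapped, with an interaction of 5.65 (adjusted p = 9.99e-05 by edgeR). Neither had a wild-type response that passed the test alone.

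*PRR5* (AT5G24470), a pseudo-response regulator that represses morning genes of the clock, differed in another way. It had 2.25, 2.98 and 1.64 CPM in UV-C treated *jac1*, 0.895, 1.04 and 0.853 in non-treated *jac1*, 0.944, 0.711 and 1.22 in UV-C treated wild type and 13.4, 13.4 and 14.5 in non-treated wild type. Here the non-treated wild type stood alone above the other 9 samples, and the *jac1* samples were higher after UV-C without overlap. The log2 fold changes were 1.29 in *jac1* and -3.85 in the wild type, and the interaction was 5.15 (standard error 0.29, Benjamini-Hochberg adjusted p = 1.15e-07 by edgeR). AT3G62550, annotated as a member of the adenine nucleotide alpha hydrolase-like superfamily, had 84.2, 82.9 and 73.9 CPM in UV-C treated *jac1*, 16.5, 12 and 11.5 in non-treated *jac1*, 14.8, 19 and 17.3 in UV-C treated wild type and 72, 80.1 and 52.4 in non-treated wild type. UV-C treated *jac1* and non-treated wild type were high together and the other 2 groups low, with log2 fold changes of 2.59 in *jac1* and -2.0 in the wild type and an interaction of 4.59 (adjusted p = 5.07e-08 by edgeR).

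The opposite falls were led by AT3G09450, annotated as a fusaric acid resistance family protein. It had 2.06, 2.47 and 3.03 CPM in UV-C treated *jac1*, 18, 24.6 and 28.1 in non-treated *jac1*, 5.35, 5.78 and 4.92 in UV-C treated wild type and 0.521, 0.781 and 0.965 in non-treated wild type. Every group was separated from every other, with log2 fold changes of -3.22 in *jac1* and 2.84 in the wild type and an interaction of -6.06 (adjusted p = 5.3e-08 by edgeR). The Dof-type zinc finger gene AT1G26790 had 2.92, 3.61 and 3.34 CPM in UV-C treated *jac1*, 20.2, 25.7 and 37.5 in non-treated *jac1*, 9.44, 10.2 and 9.25 in UV-C treated wild type and 0.587, 1.16 and 5.34 in non-treated wild type, again with non-treated *jac1* highest and non-treated wild type lowest apart from replicate 3. Its interaction was -5.16 (standard error 0.7, Benjamini-Hochberg adjusted p = 0.00014 by edgeR). *AGP17* (AT2G23130), an arabinogalactan protein of the cell surface, had 9.97, 8.31 and 10.5 CPM in UV-C treated *jac1*, 82.9, 58.3 and 33.8 in non-treated *jac1*, 19.1, 31.1 and 24 in UV-C treated wild type and 16.3, 13.8 and 7.74 in non-treated wild type. Non-treated *jac1* lay above the other groups in each sample, and the interaction was -3.57 (standard error 0.45, Benjamini-Hochberg adjusted p = 7.67e-05 by edgeR). *EXO* (AT4G08950), which promotes cell expansion downstream of brassinosteroids, had 63.9, 46.2 and 71.6 CPM in UV-C treated *jac1*, 124, 50.2 and 16.8 in non-treated *jac1*, 49.3, 76.8 and 52.6 in UV-C treated wild type and 9.06, 8.42 and 3.83 in non-treated wild type. Its non-treated *jac1* samples ranged over the UV-C treated ones, the non-treated wild type was below all, and its interaction of -3.13 (adjusted p = 0.00691 by edgeR) lost the call in 11 of the 12 fits that each left out a sample (adjusted p up to 0.02 by edgeR).

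**Figure D3:**
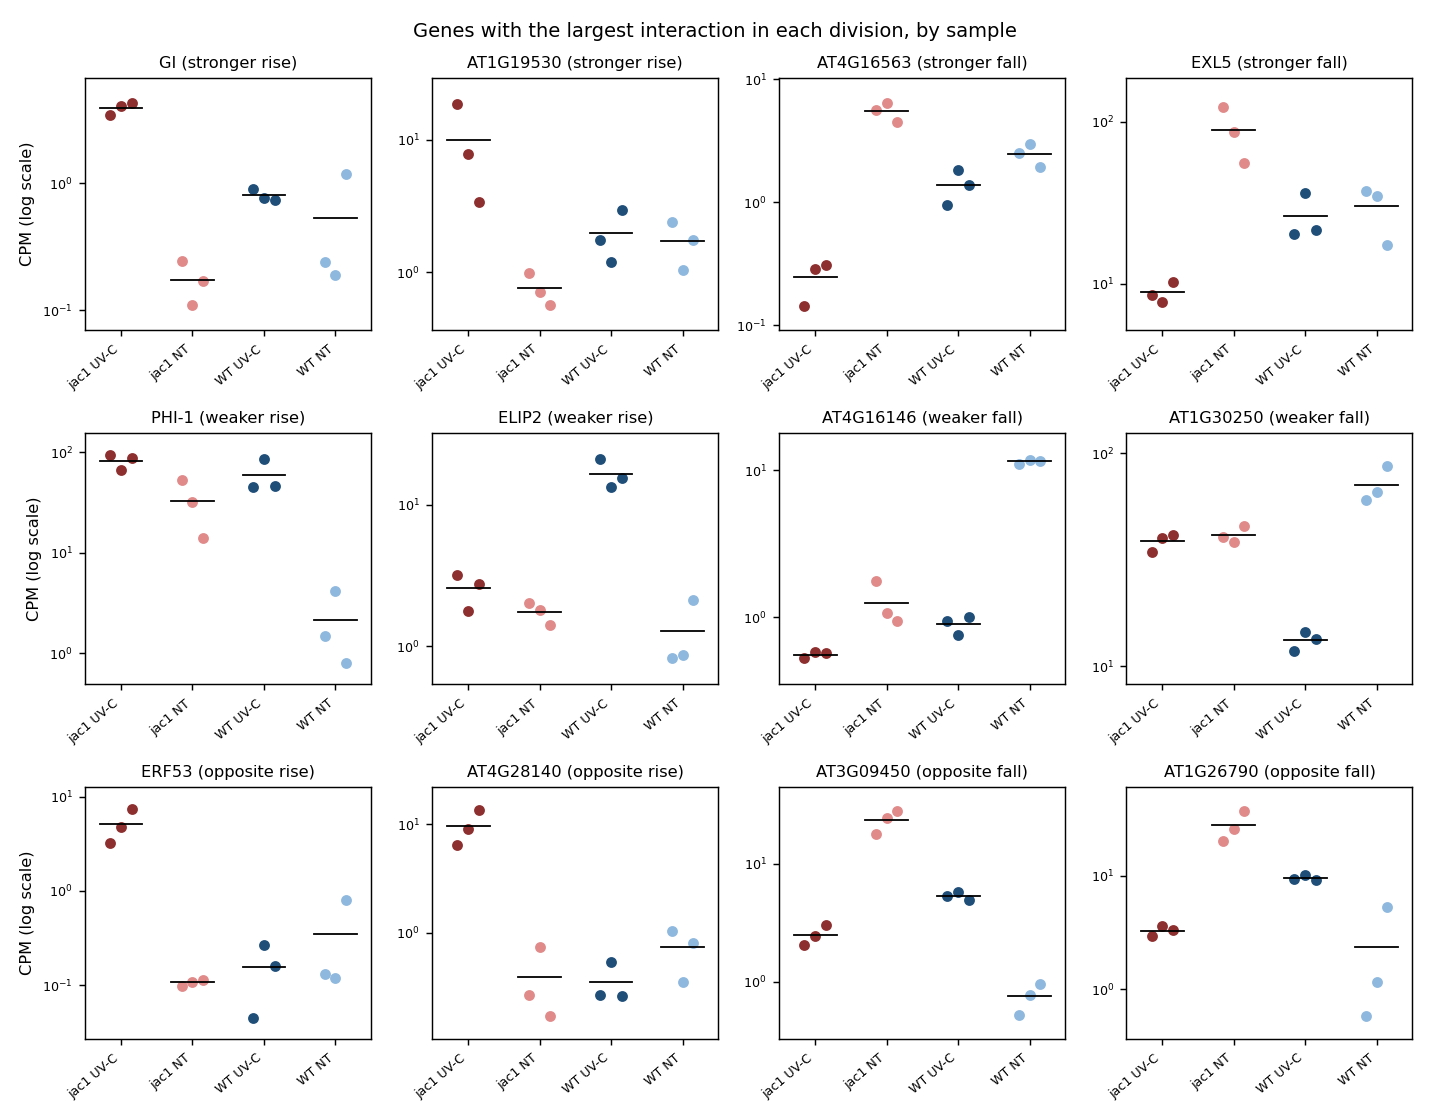
Expression (CPM with TMM factors, log scale) of 2 genes per division, 1 point per sample and the mean as a line. They have the largest interaction among called genes with a mean of at least 1 CPM and more than 3 reads in at least 1 sample of each group. Called genes below these limits, such as *FKF1*, are left out even where their interaction is larger. The groups are ordered as UV-C treated *jac1*, non-treated *jac1*, UV-C treated wild type and non-treated wild type. *ERF53* and AT4G28140 are high only in UV-C treated *jac1*, AT3G09450 is highest in non-treated *jac1*, and AT4G16146 is high only in non-treated wild type.

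Stronger rises were led by *GI* (AT1G22770), a clock and flowering-time protein that works with FKF1. It had 3.4, 4.01 and 4.26 CPM in UV-C treated *jac1*, 0.242, 0.109 and 0.171 in non-treated *jac1*, 0.899, 0.756 and 0.740 in UV-C treated wild type and 0.239, 0.189 and 1.17 in non-treated wild type. UV-C treated *jac1* lay above all others, while replicate 3 of the non-treated wild type exceeded the UV-C treated wild type. The interaction was 3.81 (standard error 0.78, Benjamini-Hochberg adjusted p = 0.00303 by edgeR), and without replicate 2 of the non-treated *jac1* plants the adjusted p was 0.0104 by edgeR. AT1G19530, annotated as DNA polymerase epsilon catalytic subunit A, had 18.7, 7.8 and 3.39 CPM in UV-C treated *jac1*, 0.992, 0.709 and 0.568 in non-treated *jac1*, 1.75, 1.2 and 2.96 in UV-C treated wild type and 2.39, 1.04 and 1.75 in non-treated wild type. Its UV-C treated *jac1* samples spread widely but lay above the rest, with an interaction of 3.54 (adjusted p = 0.00514 by edgeR) that lost the call in 5 of 12 fits leaving out a sample (adjusted p up to 0.0171).

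In 2 further stronger rises the wild-type response was small. AT3G05640, a protein phosphatase 2C, had 51.3, 72.9 and 58.7 CPM in UV-C treated *jac1*, 5.11, 4.33 and 3.67 in non-treated *jac1*, 8.77, 9.51 and 9.78 in UV-C treated wild type and 8.3, 5.54 and 7.3 in non-treated wild type. *SIS* (AT5G02020), annotated as RLIM-like, had 112, 124 and 138 CPM in UV-C treated *jac1*, 12.1, 9.78 and 12.1 in non-treated *jac1*, 6.52, 9.65 and 8.61 in UV-C treated wild type and 7.47, 6.82 and 6.39 in non-treated wild type. In both, UV-C treated *jac1* lay far above the other 9 samples, with interactions of 3.39 (adjusted p = 4.67e-07 by edgeR) and 3.2 (adjusted p = 1.09e-07 by edgeR).

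Among stronger falls, AT4G16563, an aspartyl protease, had 0.144, 0.287 and 0.308 CPM in UV-C treated *jac1*, 5.61, 6.49 and 4.49 in non-treated *jac1*, 0.944, 1.82 and 1.37 in UV-C treated wild type and 2.54, 3.01 and 1.93 in non-treated wild type. UV-C treated *jac1* was lowest and non-treated *jac1* highest, and the interaction was -3.64 (standard error 0.46, Benjamini-Hochberg adjusted p = 8.27e-05 by edgeR). *APR2* (AT1G62180), the adenylylphosphosulfate reductase that limits sulfate assimilation, had 9.4, 11.1 and 10.4 CPM in UV-C treated *jac1*, 69.1, 70.2 and 62.6 in non-treated *jac1*, 38.8, 33.3 and 35.6 in UV-C treated wild type and 37.6, 42 and 44.4 in non-treated wild type. The wild-type groups overlapped, and the interaction was -2.51 (standard error 0.12, Benjamini-Hochberg adjusted p = 3.46e-08 by edgeR). *TCP3* (AT1G53230), a TCP factor of leaf shape, had 0.336, 0.115 and 0.308 CPM in UV-C treated *jac1*, 2.56, 1.94 and 1.62 in non-treated *jac1*, 1.08, 1.73 and 1.0 in UV-C treated wild type and 2.28, 1.99 and 2.32 in non-treated wild type, with an interaction of -2.19 (adjusted p = 0.00358 by edgeR). Its call was lost without replicate 2 of the UV-C treated *jac1* (adjusted p = 0.0125) and without replicate 2 of the UV-C treated wild type (adjusted p = 0.0106, both by edgeR). *EXL5* is described with its family below.

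Weaker rises included *ELIP2* (AT4G14690), an early light-induced protein of thylakoids under light stress. It had 3.21, 1.78 and 2.77 CPM in UV-C treated *jac1*, 2.03, 1.8 and 1.42 in non-treated *jac1*, 20.9, 13.3 and 15.4 in UV-C treated wild type and 0.825, 0.876 and 2.14 in non-treated wild type. UV-C treated wild type lay above the other 9 samples, in which the *jac1* groups overlapped the non-treated wild type, and the interaction was -3.14 (standard error 0.45, Benjamini-Hochberg adjusted p = 0.000249 by edgeR). AT3G54510, of the ERD4 family, had 15, 11.6 and 12.1 CPM in UV-C treated *jac1*, 3.85, 5.01 and 3.89 in non-treated *jac1*, 5.35, 5.91 and 4.28 in UV-C treated wild type and 0.391, 0.189 and 0.287 in non-treated wild type. It rose in both genotypes, from a non-treated level in *jac1* that overlapped UV-C treated wild type, with log2 fold changes of 1.6 in *jac1* and 4.14 in the wild type and an interaction of -2.54 (adjusted p = 5.2e-05 by edgeR). *XTR6* (AT4G25810), a xyloglucan endotransglycosylase, had 11.6, 8.31 and 11.8 CPM in UV-C treated *jac1*, 3.24, 3.27 and 1.42 in non-treated *jac1*, 12.4, 20.8 and 9.35 in UV-C treated wild type and 0.587, 1.02 and 0.235 in non-treated wild type, and its interaction of -2.52 (adjusted p = 0.00532 by edgeR) lost the call in 6 of 12 fits leaving out a sample (adjusted p up to 0.0165).

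Most of the leading weaker falls were high in the non-treated wild type alone. AT4G16146, related to the phosphoprotein ARPP-19, had 0.527, 0.573 and 0.565 CPM in UV-C treated *jac1*, 1.77, 1.06 and 0.938 in non-treated *jac1*, 0.944, 0.756 and 1.0 in UV-C treated wild type and 11.1, 11.9 and 11.6 in non-treated wild type. *PDC2* (AT5G54960), a pyruvate decarboxylase of ethanol fermentation, had 4.7, 4.99 and 3.49 CPM in UV-C treated *jac1*, 6.61, 7.85 and 5.43 in non-treated *jac1*, 6.21, 5.16 and 5.44 in UV-C treated wild type and 28.6, 30.7 and 33.5 in non-treated wild type. In both, non-treated wild type lay above the other 9 samples, with interactions of 2.49 (adjusted p = 0.000431 by edgeR) and 1.87 (adjusted p = 2.93e-05 by edgeR). The cytochrome P450 gene *CYP706A6* (AT4G12320) had 14.2, 16.9 and 14.4 CPM in UV-C treated *jac1*, 23.6, 19.7 and 26.7 in non-treated *jac1*, 12.4, 11.8 and 11.8 in UV-C treated wild type and 57, 64 and 80.5 in non-treated wild type and an interaction of 1.86 (adjusted p = 1.39e-05 by edgeR). AT1G30250, which codes for an uncharacterized protein, had 34.4, 40.1 and 41.3 CPM in UV-C treated *jac1*, 40.3, 38.3 and 45.4 in non-treated *jac1*, 11.8, 14.4 and 13.4 in UV-C treated wild type and 60.5, 65.9 and 86.7 in non-treated wild type, so that the *jac1* groups overlapped while the wild-type groups lay on either side of them, with an interaction of 2.33 (adjusted p = 1.57e-06 by edgeR). In the guard cell list, the anion channel gene *SLAC1* (AT1G12480) was also called as a weaker fall, with an interaction of 1.79 (adjusted p = 0.00493 by edgeR). Its level was low, with 0.212, 0.327 and 0.574 CPM of counted reads in UV-C treated wild type. *FAMA*, *KAT1*, *MYB60* and *HT1*, the rest of the list, were lower after UV-C in both genotypes without overlap. After UV-C *FAMA* was lower in *jac1* (6.14, 8.797 and 7.513 CPM of counted reads) than in the wild type (14.02, 10.55 and 10.96). Its non-treated groups overlapped. *SLAC1* was higher in *jac1* after UV-C, so it does not stand for the list.

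Families were taken by name patterns on the annotation, and 263 of the 780 called genes fell into at least 1 of 68 families and lists; *TCP3*, which its pattern missed, is not among them. Of the genes in any of them 5.54% were called, against 3.38% of the genes in none. Families and lists were chosen with earlier results of these data known, so these shares reflect the choice as well as the genes. No test was made on families, and their counts stand beside the 3.90% of all nuclear genes.

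**Figure D4:**
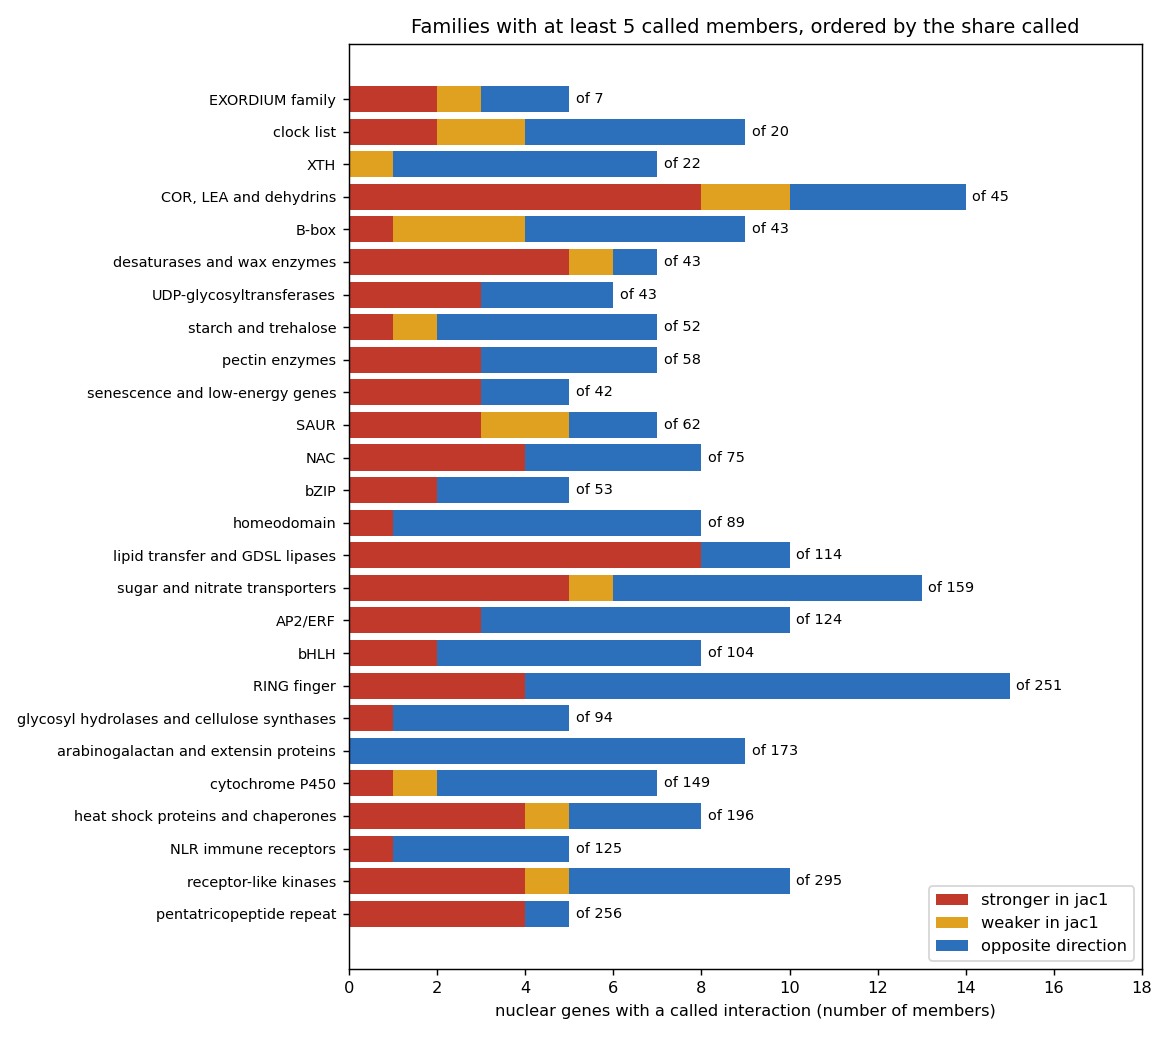
Number of called members (x axis) of each family with at least 5, coloured by class, with the number of members tested beside each bar and families ordered by the share called. The EXORDIUM family (5 of 7), the clock list (9 of 20), the COR, LEA and dehydrin genes (14 of 45) and the XTH genes (7 of 22) have the highest shares. The EXORDIUM family was listed, and *XTR6* added to the XTH genes, after their values were seen, so this order is no result.

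The circadian clock of plants is a loop of transcription factors in which morning proteins (CCA1, LHY, RVE) and daytime and evening proteins (PRR, TOC1, GI, ELF) switch each other off and on. Of 20 clock genes 9 were called, 4 positive and 5 negative. The called positive members were *PRR5*, *TOC1*, *GI* and *FKF1*, all phased to the day or evening. *FKF1* passed the filter on low counts only through the non-treated wild type, where it was high, so its call adds nothing to this split. The called negative ones were *CCA1*, *LHY*, *RVE2*, *RVE8* and *LNK2*, all phased to the morning. *TOC1* (AT5G61380), which represses *CCA1* and *LHY*, had 15.5, 15.7 and 15.7 CPM in UV-C treated *jac1*, 24.3, 26.4 and 21.4 in non-treated *jac1*, 22.9, 18.4 and 19.1 in UV-C treated wild type and 89.8, 85 and 88.8 in non-treated wild type. *LHY* (AT1G01060), a morning MYB-like factor, had 437, 473 and 451 CPM in UV-C treated *jac1*, 912, 1040.3 and 1021 in non-treated *jac1*, 647, 662 and 637 in UV-C treated wild type and 281, 294 and 424 in non-treated wild type. The non-treated wild type was highest for *TOC1* and lowest for *LHY*, with interactions of 1.51 (adjusted p = 2.33e-06 by edgeR) and -2.09 (adjusted p = 2.1e-06 by edgeR). *CCA1* (AT2G46830), the partner of *LHY*, had 399.6, 407 and 383 CPM in UV-C treated *jac1*, 525, 605 and 638 in non-treated *jac1*, 357, 365 and 372 in UV-C treated wild type and 112, 130.1 and 288 in non-treated wild type, with an interaction of -1.62 (adjusted p = 0.00424 by edgeR) that lost the call in 6 of 12 fits leaving out a sample (adjusted p up to 0.0111).

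*FKF1* (AT1G68050), a blue-light receptor in an F-box protein, was read almost only in the non-treated wild type. It had 0.0959, 0.0573 and 0.0513 CPM in UV-C treated *jac1*, 0.0242, 0 and 0.0284 in non-treated *jac1*, 0.180, 0.0445 and 0.106 in UV-C treated wild type and 1.98, 1.7 and 1.93 in non-treated wild type. In non-treated *jac1* it had at most 3 reads per library, so no fold change is given. Its call (adjusted p = 0.00199) was lost without replicate 1 of the UV-C treated *jac1* (adjusted p = 0.0193, both by edgeR). Without any 1 of the non-treated wild-type replicates *FKF1* did not pass the filter on low counts and could not be tested. *RVE2* (AT5G37260), a morning MYB-like factor, had 14.1, 14.4 and 12.3 CPM in UV-C treated *jac1*, 239, 246 and 217 in non-treated *jac1*, 82.9, 96.6 and 80.0 in UV-C treated wild type and 319, 353 and 379.9 in non-treated wild type. It fell with UV-C in both genotypes and further in *jac1*, with log2 fold changes of -4.1 in *jac1* and -2.02 in the wild type and an interaction of -2.08 (adjusted p = 2.05e-07 by edgeR). *RVE8* (AT3G09600), which activates evening genes through the evening element, had 122, 127 and 114 CPM in UV-C treated *jac1*, 220.3, 226 and 224 in non-treated *jac1*, 156, 152 and 156 in UV-C treated wild type and 115, 112 and 136 in non-treated wild type and an interaction of -1.24 (adjusted p = 1.63e-06 by edgeR). *LNK2* (AT3G54500), a co-activator bound by RVE8, had 1785, 2035 and 1797 CPM in UV-C treated *jac1*, 867, 977 and 1015 in non-treated *jac1*, 1115, 1159.6 and 1082 in UV-C treated wild type and 99.2, 95.5 and 174 in non-treated wild type. Non-treated wild type was far below the other groups, and the interaction was -2.21 (standard error 0.24, Benjamini-Hochberg adjusted p = 2.46e-05 by edgeR).

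The other 11 clock genes were not called. *PRR9* (AT2G46790), the earliest of the pseudo-response regulators, had 6.04, 4.42 and 4.42 CPM in UV-C treated *jac1*, 0.0968, 0.218 and 1.02 in non-treated *jac1*, 1.17, 0.845 and 0.634 in UV-C treated wild type and 0, 0.0237 and 1.67 in non-treated wild type. *PRR7* (AT5G02810), which follows it, had 82, 83.4 and 69.2 CPM in UV-C treated *jac1*, 9.68, 9.43 and 8.92 in non-treated *jac1*, 23, 23 and 23 in UV-C treated wild type and 2.02, 2.06 and 8.06 in non-treated wild type. Their interactions were 2.78 (adjusted p = 0.162 by edgeR) for *PRR9* and 0.52 (adjusted p = 0.45 by edgeR) for *PRR7*. In these genes, and in *LNK1* with 0.543, 0.734 and 6.05 CPM in the non-treated wild type, replicate 3 of the non-treated wild type lay well above the other two. *LNK1* had an interaction of -0.33 (adjusted p = 0.754 by edgeR), but without that replicate it was -2.2 (adjusted p = 2.04e-05 by edgeR), which passes the threshold. Without that replicate 9 clock genes were called, 3 of them positive, *FKF1* being left untested. The interactions of the rest lay between -0.75 for *PRR3* (adjusted p = 0.0231) and 2.09 for *ELF4* (adjusted p = 0.223, both by edgeR), a gene with under 1 CPM in 3 groups. *ZTL* (AT5G57360), a relative of *FKF1* whose RNA is known to be steady over the day, had an interaction of 0.53 (adjusted p = 0.000936 by edgeR), under the minimum fold. *RVE1*, *RVE7*, *ELF3*, *LUX* and *BOA* had adjusted p of 0.528, 0.117, 0.389, 0.0832 and 0.582 by edgeR. Whether the hour of harvest differed between the groups, and its part in these results, was not tested.

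**Figure D5:**
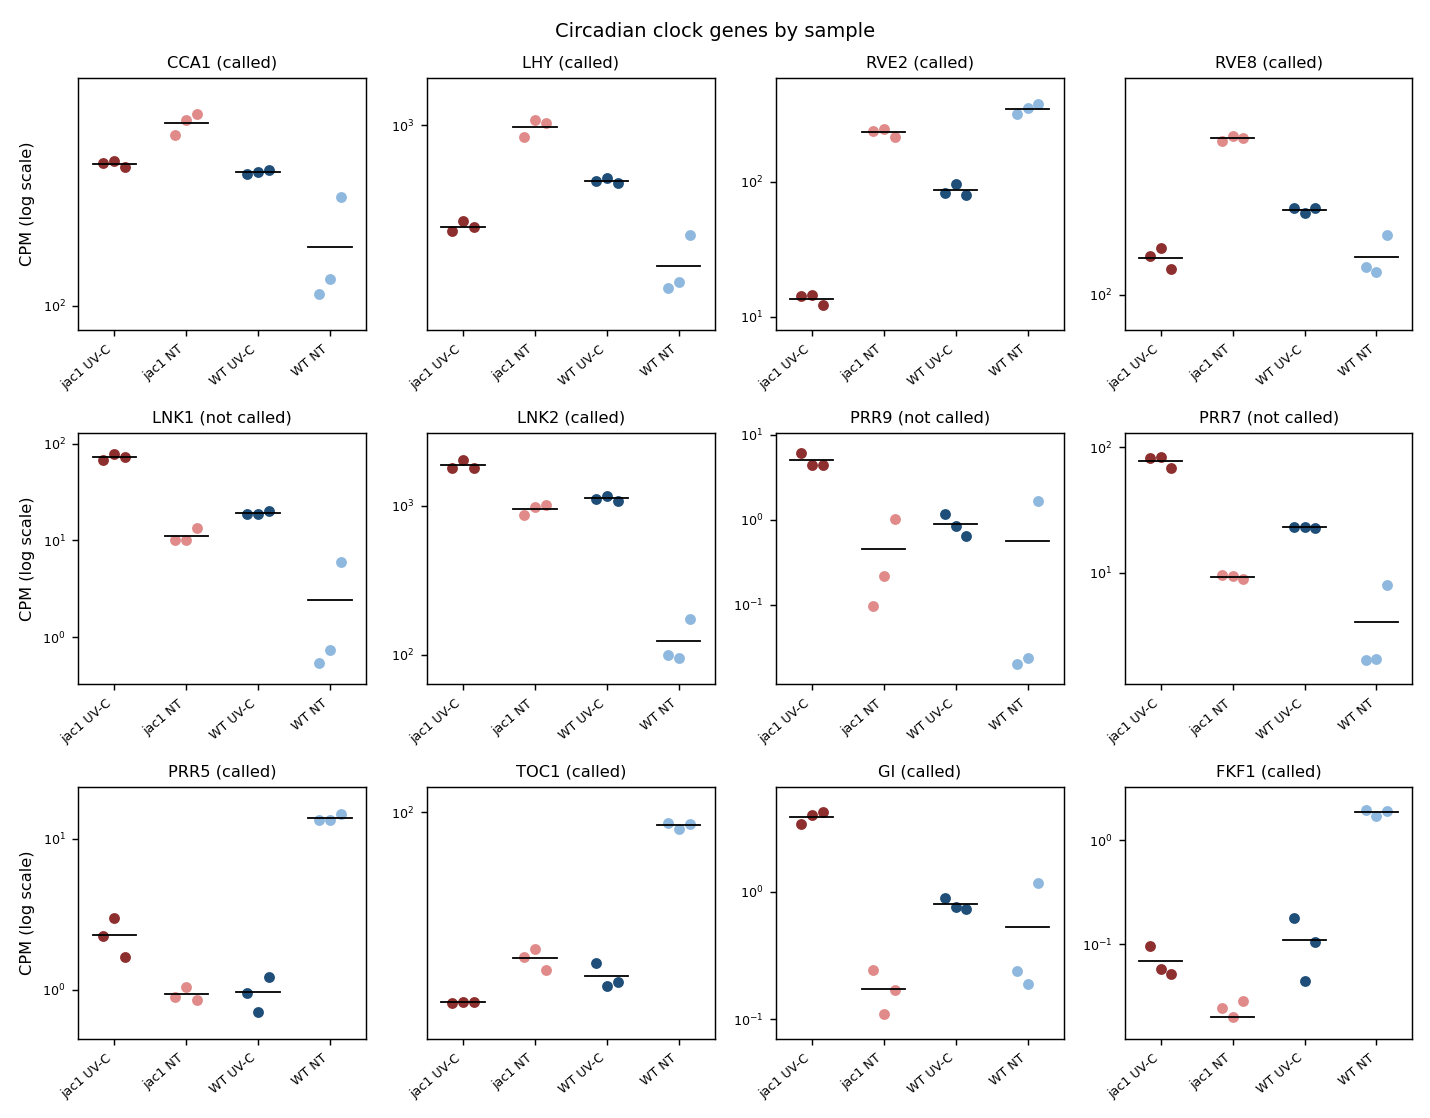
Expression (CPM with TMM factors, log scale, 0 drawn at 0.02) of 12 clock genes by sample, with the mean as a line and the groups ordered as UV-C treated *jac1*, non-treated *jac1*, UV-C treated wild type and non-treated wild type. *PRR5*, *TOC1* and *FKF1* are highest and *LHY*, *LNK2* and *PRR7* lowest in non-treated wild type, in which replicate 3 stands apart from the other two in *PRR9*, *PRR7*, *LNK1* and *CCA1*.

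Genes named after cold, dehydration and abscisic acid responses (COR, LEA and dehydrins) were taken by name. Some code for hydrophilic protective proteins, but the names also cover a protease (*RD19*), a NAC factor (*RD26*) and an enzyme (*ERD5*). The letters COR also took in *CORI3*, a called stronger rise that is not one of the cold-regulated genes. The counts therefore describe the names rather than a class of protein. Of the 45 genes 14 were called (31.1%). Of these 12 were positive, 8 stronger, 2 weaker and 4 opposite, and the median interaction was 0.72 over the 45 genes, against 0.005 over all nuclear genes. The median was 0.56 with libraries scaled by size alone. *RD19* (AT4G39090), a papain-type cysteine protease, had 441, 497 and 431 CPM in UV-C treated *jac1*, 159.8, 154 and 137 in non-treated *jac1*, 139, 145 and 141 in UV-C treated wild type and 349, 355 and 296 in non-treated wild type. Its interaction was 2.84 (standard error 0.12, Benjamini-Hochberg adjusted p = 9.05e-09 by edgeR), with 1.6 in *jac1* and -1.23 in the wild type for the responses. *ERD14* (AT1G76180), a dehydrin, had 366, 404 and 387 CPM in UV-C treated *jac1*, 112, 106 and 110.05 in non-treated *jac1*, 180.2, 192 and 165 in UV-C treated wild type and 154, 162 and 156 in non-treated wild type. It rose in *jac1* from a non-treated level below that of the wild type, with an interaction of 1.63 (adjusted p = 7.27e-08 by edgeR). The cold-regulated genes *COR47*, *ERD10*, *COR413IM1*, *KIN1* and *LTI78* were also stronger rises, with interactions of 1.41 for *ERD10* to 2.64 for *COR413IM1*. *RAB18*, a dehydrin used as a marker of abscisic acid, was an opposite rise (3.57). The 2 negative members were *ERD5* (-1.39), the proline dehydrogenase, and AT2G41990 (-1.12).

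Of the genes of senescence and low energy 5 of 42 were called, and 3 with libraries scaled by size alone. *SEN1* (AT4G35770), induced by darkness and senescence, had 1081, 949.9 and 794 CPM in UV-C treated *jac1*, 74.8, 74.6 and 58.8 in non-treated *jac1*, 125, 127 and 135 in UV-C treated wild type and 44.9, 41.6 and 53.4 in non-treated wild type. It rose in both genotypes without overlap, with log2 fold changes of 3.76 in *jac1* and 1.47 in the wild type and an interaction of 2.3 (adjusted p = 1.08e-06 by edgeR). AT2G44670, of the DUF581 family, was a stronger fall with an interaction of -1.33 (adjusted p = 5.8e-06 by edgeR). No gene of DNA repair and damage (50 tested) was called, and the smallest adjusted p among them was 3.24e-05 by edgeR, for a value under the minimum fold. With libraries scaled by size alone 1 was called.

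Transcription factors of 12 families held 60 called genes among 788 tested (7.61%); the name pattern missed *TCP3*, which is not in this count. All 8 called NAC genes of 75 were positive, 4 stronger and 4 opposite. *NAC6* (AT5G39610), a promoter of leaf senescence also known as ORE1, had 20.8, 22.3 and 23.3 CPM in UV-C treated *jac1*, 8.4, 7.17 and 7.59 in non-treated *jac1*, 4.45, 6.31 and 4.92 in UV-C treated wild type and 11.9, 9.39 and 8.99 in non-treated wild type, with an interaction of 2.47 (adjusted p = 1.14e-06 by edgeR). *NAC089* (AT5G22290), a membrane-bound NAC factor, had 28.2, 27.9 and 29.3 CPM in UV-C treated *jac1*, 11.3, 10.4 and 11.2 in non-treated *jac1*, 12.8, 14.2 and 13.6 in UV-C treated wild type and 12.3, 11.5 and 12.6 in non-treated wild type. It was nearly flat in the wild type, with an interaction of 1.22 (adjusted p = 1.57e-06 by edgeR). The other called NAC genes were *NAP*, *RD26*, *NAC019*, *NAC069* and 2 loci with the symbol *NAC3* (AT3G15500 and AT3G29035), and *NAP*, *RD26* and *NAC019* rose more in *jac1* by 1.62, 1.81 and 2.22 on the log2 scale. *RD26* is also counted with the dehydration genes.

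B-box and CCT-domain proteins, many of which act in light signalling, had 9 of 43 called, 3 positive and 6 negative. *BBX19* (AT4G38960) had 22.6, 24.1 and 23.9 CPM in UV-C treated *jac1*, 31.1, 33.3 and 36.7 in non-treated *jac1*, 27.4, 28.6 and 27.2 in UV-C treated wild type and 12.9, 14.7 and 19 in non-treated wild type, lowest in non-treated wild type, with an interaction of -1.36 (adjusted p = 3.93e-05 by edgeR). *TOC1*, which has a CCT domain, is counted here too. Of the genes taken as AP2/ERF by name 10 of 124 were called, 6 positive, with *CRF11* (AT3G25890), a cytokinin response factor, at -1.31. The name pattern also took in *ABS2* (AT2G36080, 1.17), which is annotated as AP2/B3-like, so the count is not of AP2/ERF genes alone. Homeodomain genes had 8 of 89 called, of which 7 were positive and 7 opposite. *HB6* (AT2G22430), a target of ABI1 in abscisic acid signalling, had 144, 176 and 176 CPM in UV-C treated *jac1*, 92.1, 93.9 and 98.4 in non-treated *jac1*, 86.4, 90.4 and 94.4 in UV-C treated wild type and 118, 137 and 154 in non-treated wild type and an interaction of 1.39 (adjusted p = 8.99e-06 by edgeR), while *BLH6* (AT4G34610), a factor of secondary wall formation, was the negative one with -1.75 (adjusted p = 3.98e-07 by edgeR). With libraries scaled by size alone 4 homeodomain genes were called, 3 of them positive, and with DESeq2 size factors 5.

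Of 56 WRKY genes 4 were called. *WRKY18* (AT4G31800), a pathogen-induced factor, had 69, 76.9 and 69.1 CPM in UV-C treated *jac1*, 9.51, 11.6 and 11.7 in non-treated *jac1*, 120.1, 98.8 and 118 in UV-C treated wild type and 5.82, 6.7 and 4.8 in non-treated wild type. It rose without overlap in both genotypes, less in *jac1*, with an interaction of -1.56 (adjusted p = 1.48e-05 by edgeR), and *WRKY70* was likewise a weaker rise (-1.69). *WRKY26* (AT5G07100), of the heat response, was a stronger rise with an interaction of 1.33 (adjusted p = 4.28e-05 by edgeR). Of 104 bHLH genes 8 were called, among them *MYC4* (AT4G17880), a factor of jasmonate responses, with an interaction of -1.08 (adjusted p = 3.57e-06 by edgeR), and *UNE10* (AT4G00050), a relative of the phytochrome-interacting factors, with -1.44 (adjusted p = 6.13e-06 by edgeR). Of 53 bZIP genes 5 were called, with *bZIP1* (AT5G49450), a factor of low energy, at 1.25, and of 77 MYB genes 2, *MYB70* (-1.76) and *MYBR1* (-1.28). Of the 12 fits leaving out a sample, *MYB70* lost the call in 3 (adjusted p up to 0.014) and *MYBR1* in 4 (adjusted p up to 0.0118, both by edgeR). With libraries scaled by size alone 4 MYB genes were called. C2H2 zinc fingers and heat stress factors had 1 called gene each, *ZAT7* (-1.17) and *HSFA8* (1.77). *ZAT7* lost the call in 10 of the 12 fits leaving out a sample (adjusted p up to 0.0349 by edgeR), and without replicate 3 of the non-treated wild type no C2H2 gene was called.

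Cell wall families held 37 called genes of 374 tested, most of them opposite. The XTH enzymes, which cut and rejoin xyloglucan, had 7 of 22 called, 6 opposite and 1 weaker, and their median interaction was -0.64; *XTR6* was added to the family after its values were seen. *XTH6* (AT5G65730) had 113, 112 and 81.2 CPM in UV-C treated *jac1*, 327, 375 and 274 in non-treated *jac1*, 131, 193 and 149.6 in UV-C treated wild type and 143, 134 and 88.3 in non-treated wild type. Non-treated *jac1* lay above the other 9 samples, with an interaction of -2.05 (adjusted p = 0.000106 by edgeR). *XTH16* (AT3G23730) had 13.3, 10.1 and 11.7 CPM in UV-C treated *jac1*, 30.6, 24.7 and 16.5 in non-treated *jac1*, 23.7, 30.9 and 22.5 in UV-C treated wild type and 16.4, 12.7 and 10.2 in non-treated wild type and an interaction of -2.0 (adjusted p = 0.000366 by edgeR). *XTH31* was the positive member (2.23). *XTH18*, the member with the largest rise in both genotypes, had log2 fold changes of 6.76 in *jac1* and 6.62 in the wild type and an interaction of 0.14 (standard error 0.51, adjusted p = 0.876 by edgeR).

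The EXORDIUM family, secreted proteins of growth and carbon starvation, was listed after its values were seen and had 5 of 7 called, spread over all 3 classes. *EXL5* (AT2G17230) had 8.58, 7.74 and 10.2 CPM in UV-C treated *jac1*, 124, 87 and 55.5 in non-treated *jac1*, 20.4, 36.5 and 21.4 in UV-C treated wild type and 37.6, 35.1 and 17.5 in non-treated wild type, a stronger fall with an interaction of -3.12 (adjusted p = 0.000347 by edgeR). *EXL4* (AT5G09440) had 90.1, 109.5 and 97.8 CPM in UV-C treated *jac1*, 22.8, 24.5 and 17.4 in non-treated *jac1*, 29.6, 33.6 and 28.6 in UV-C treated wild type and 18.9, 15.9 and 16.1 in non-treated wild type, a stronger rise with an interaction of 1.34 (adjusted p = 7.12e-05 by edgeR). *PHI-1* (AT1G35140), whose promoter is printed above, had 94.8, 66.5 and 87.7 CPM in UV-C treated *jac1*, 52.6, 31.8 and 14 in non-treated *jac1*, 45.7, 86.1 and 46.6 in UV-C treated wild type and 1.48, 4.16 and 0.808 in non-treated wild type. Its UV-C treated groups overlapped between the genotypes, the non-treated ones did not, and its interaction of -3.44 (adjusted p = 0.00225 by edgeR) made it a weaker rise.

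Arabinogalactan and extensin genes had 9 of 173 called, all opposite and 8 negative. AT4G16140, a proline-rich protein, had an interaction of -2.0 (adjusted p = 2.48e-07 by edgeR), and AT2G27385 was the positive one with 1.17 (adjusted p = 4.14e-06 by edgeR). Under scaling by size alone 11 were called, 8 opposite and 3 stronger. Of 20 expansins 4 were called. *EXPA16* (AT3G55500) had 49.4, 72.8 and 67.7 CPM in UV-C treated *jac1*, 16.9, 13.2 and 18 in non-treated *jac1*, 5.26, 8.4 and 8.09 in UV-C treated wild type and 21.8, 26.7 and 39.2 in non-treated wild type. UV-C treated *jac1* was above and UV-C treated wild type below all others, with an interaction of 3.99 (adjusted p = 1.87e-06 by edgeR). Pectin enzymes had 7 of 58 called, 6 positive, but 3 called and 1 positive with libraries scaled by size alone. Among 94 glycosyl hydrolase and cellulose synthase genes 5 were called, and the beta-galactosidase gene *BGAL4* (AT5G56870) had 218, 207 and 131 CPM in UV-C treated *jac1*, 48.2, 54.2 and 46.5 in non-treated *jac1*, 35.4, 37.2 and 40.2 in UV-C treated wild type and 47.2, 47.2 and 45.5 in non-treated wild type and an interaction of 2.21 (adjusted p = 5.42e-06 by edgeR).

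Metabolic families held 39 called genes of 454 (8.59%). In starch and trehalose metabolism 7 of 52 were called, 5 of them positive and 5 opposite. *PHS1* (AT3G29320), the plastidial starch phosphorylase, had 84.4, 80.8 and 86.2 CPM in UV-C treated *jac1*, 42, 44.5 and 42 in non-treated *jac1*, 45.7, 39.9 and 49.7 in UV-C treated wild type and 69.8, 74.2 and 72.4 in non-treated wild type, with an interaction of 1.65 (adjusted p = 1.7e-07 by edgeR). *TPS11* (AT2G18700), a trehalose-phosphate synthase homologue, had 220.5, 250.2 and 232 CPM in UV-C treated *jac1*, 83.7, 100.02 and 79.8 in non-treated *jac1*, 60.6, 62.8 and 62.9 in UV-C treated wild type and 67.3, 64.3 and 65.4 in non-treated wild type. Its wild-type groups lay close together, and the interaction was 1.49 (standard error 0.11, Benjamini-Hochberg adjusted p = 8.69e-07 by edgeR). The others were *TPS10*, *ISA3*, *BAM4*, *BMY3* and *GBSS1*, the last of which, the granule-bound starch synthase, was a weaker rise (-1.54).

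Enzymes of fatty acid desaturation and wax synthesis had 7 of 43 called, 6 of them negative. *KCS9* (AT2G16280), which elongates very long fatty acids, had 36.9, 38.1 and 33.2 CPM in UV-C treated *jac1*, 153, 151 and 133 in non-treated *jac1*, 44.7, 55.1 and 44.6 in UV-C treated wild type and 72, 76.1 and 72.7 in non-treated wild type. Non-treated *jac1* was highest and UV-C treated *jac1* lowest, with an interaction of -1.41 (adjusted p = 3.6e-06 by edgeR). *KCS1*, *KCS5* and *KCS20* were stronger falls too (-1.22, -1.72 and -1.01), while *KCS8* was a weaker fall (1.11). Lipid transfer proteins and GDSL lipases had 10 of 114 called, 8 stronger and 8 negative. *ARAB-1* (AT1G28670) had 14.4, 13.3 and 14.6 CPM in UV-C treated *jac1*, 50.6, 54.3 and 45.2 in non-treated *jac1*, 29, 36.6 and 31.9 in UV-C treated wild type and 34.8, 37.5 and 28.3 in non-treated wild type. The wild-type groups overlapped, and the interaction was -1.78 (standard error 0.16, Benjamini-Hochberg adjusted p = 4.14e-06 by edgeR).

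All 7 called cytochrome P450 genes of 149 were positive, 5 of them in the CYP71B group, all opposite. *CYP71B4* (AT3G26280) and *CYP71B26* (AT3G26290), neighbours on chromosome 3, had interactions of 1.59 (adjusted p = 8.27e-07 by edgeR) and 2.06 (adjusted p = 1.65e-06 by edgeR). Under scaling by size alone 9 were called, 7 of them positive. UDP-glycosyltransferases had 6 of 43 called, 4 positive, with *UGT84A3* (AT4G15490), of sinapate esters, at 2.14, *UGT73B1* at 1.19 and *UGT84A2*, also of sinapate esters, at -1.28. The flavonol synthase gene *FLS1* (AT5G08640) was a stronger fall with -1.08 (adjusted p = 0.00331 by edgeR), lost in 4 of 12 fits leaving out a sample (adjusted p up to 0.0129). Of 78 2-oxoglutarate dioxygenases 3 were called, all opposite rises, with AT5G43440 at 3.82.

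Light-harvesting proteins bind chlorophyll at the photosystems. Of 18 genes 4 were called, all weaker rises, namely *LHCB1.1*, *LHCB2.1*, *LHCB2.2* and *LHCB2.3*. *LHCB1.1* (AT1G29920) had 19952, 17418 and 19449 CPM in UV-C treated *jac1*, 6056, 6562 and 6735 in non-treated *jac1*, 7824, 8716 and 8892 in UV-C treated wild type and 769, 1029 and 1494 in non-treated wild type. The groups were separated from one another, with log2 fold changes of 1.55 in *jac1* and 2.95 in the wild type and an interaction of -1.4 (adjusted p = 0.000843 by edgeR). *LHCB2.3* (AT3G27690) had an interaction of -1.12 (adjusted p = 0.00136 by edgeR), which without replicate 1 of the non-treated wild type was -0.97, under the minimum fold. Reads shared by close copies were not counted, so values of single *LHCB1* and *LHCB2* genes are uncertain. The other 14 had interactions between -0.38 for *LHCB3* and 0.33 for *LHCB4.1*, and the median of the 18 was -0.05. No subunit of the photosystems and electron transport (45 tested), no enzyme of chlorophyll synthesis (24) and no plastid ribosome or gene expression protein (26) was called.

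In transport, *TIP2;2* (AT4G17340), a water channel of the vacuole, had 150.4, 258 and 216 CPM in UV-C treated *jac1*, 28.6, 33.1 and 33.3 in non-treated *jac1*, 34.4, 46.9 and 34.9 in UV-C treated wild type and 51.8, 45.9 and 59.4 in non-treated wild type. UV-C treated *jac1* lay far above the other 9 samples, with an interaction of 3.15 (adjusted p = 1.5e-06 by edgeR). Sugar and nitrate transporters had 13 of 159 called, 5 positive, among them *PMT6* (AT4G36670), a polyol transporter, with 2.49 (adjusted p = 1.45e-07 by edgeR), and *PTR4* (AT2G02020), a peptide transporter homologue, with -2.21 (adjusted p = 5.31e-07 by edgeR). In signalling, 10 of 295 receptor-like kinases (3.39%) and 5 of 125 NLR immune receptors were called; with libraries scaled by size alone 17 receptor-like kinases were called, 15 of them negative. The NLR genes included *RPP4* (1.42) and *SNC1* (1.04), which belong to a cluster of near copies, so that their values are uncertain. *CIPK15* (AT5G01810) and *CIPK21* (AT5G57630), kinases of calcium signalling, went opposite ways, with -1.56 (adjusted p = 1.97e-06 by edgeR) and 2.12 (adjusted p = 1.46e-05 by edgeR). *ABI1* (AT4G26080), a phosphatase that holds down abscisic acid signalling, was an opposite rise with 1.09 (adjusted p = 5.2e-05 by edgeR), and *MPK7* with 1.49 (adjusted p = 8.27e-07 by edgeR).

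RING finger proteins, a large group of ubiquitin ligases, had 15 of 251 called, 13 positive and 11 opposite. AT5G24460 had 41.2, 39 and 40.7 CPM in UV-C treated *jac1*, 22.5, 24.4 and 24.5 in non-treated *jac1*, 19.6, 21.8 and 21.8 in UV-C treated wild type and 36.1, 34.5 and 35.8 in non-treated wild type, with an interaction of 1.51 (adjusted p = 1.05e-07 by edgeR). Chaperones had 8 of 196 called, among them the chloroplast J-domain proteins *J8* (AT1G80920) and *J20* (AT4G13830), both stronger rises with 1.62 (adjusted p = 8.27e-07 by edgeR) and 1.42 (adjusted p = 1.77e-07 by edgeR). *J8* had 496, 514 and 465 CPM in UV-C treated *jac1*, 97.8, 94.9 and 87.3 in non-treated *jac1*, 144, 124 and 135 in UV-C treated wild type and 87.6, 77.2 and 70.0 in non-treated wild type. Auxin-related SAUR genes had 7 of 62 called, but 3 without replicate 3 of the non-treated wild type. The AUX/IAA gene *IAA29* was a stronger rise (1.77) that lost the call in 10 of 12 fits leaving out a sample (adjusted p up to 0.0333) and was called neither with DESeq2 size factors nor with libraries scaled by size alone.

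In 15 families edgeR called no member, among them the 228 cytosolic ribosomal proteins, whose median interaction was -0.04. With libraries scaled by size alone 6 of the 15 families had 1 called member. The JAZ repressors of jasmonate signalling (10 tested) had median log2 fold changes of 1.63 in *jac1* and 1.81 in the wild type and a median interaction of -0.06. The pentatricopeptide repeat proteins had 5 of 256 called, all negative, with a median interaction of -0.34. With libraries scaled by size alone 11 were called, all negative, with a median of -0.49, and without replicate 3 of the non-treated wild type 3 were called. Genes of cell cycle and kinesins had a median of -0.31 with 1 of 105 called, and 3 called without that replicate.

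Called genes had fewer introns than nuclear genes at large. The median number was 2 for called genes and 4 for all nuclear genes, and 25.8% of called genes had none, against 15.3% of all. The share without introns was 18 of 45 in weaker rises and 22.0% in opposite rises. The median summed exon length was 1395 bases in stronger rises and 2009 in stronger falls, against 1769 over all nuclear genes. The median of mean expression was 13.3 CPM in called genes and 14.3 CPM over all. The share called per chromosome lay between 3.51% on chromosome 3 and 4.66% on chromosome 4.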

How the data were processed

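Per the labels and the study's methods, poly-T selected libraries of whole rosettes were sequenced, and the authors aligned reads with STAR (2.5.2b) and deposited counts per gene from featureCounts (Subread 1.6.2) on Araport11, without strand and without reads that mapped or overlapped more than once. All 12 count columns were used. Of 37813 genes, 37517 matched the RefSeq TAIR10.1 annotation by locus. The fit took protein-coding genes that reached 5 reads in 3 or more samples, and used edgeR (4.0.16, R 4.3.3) with TMM factors, 1 mean per group and its two-sided quasi-likelihood test; p-values were adjusted by Benjamini-Hochberg across every gene in the fit. The model, filter and thresholds follow the study's methods, which used a likelihood ratio test. The fit was checked on simulated data. Alternatives used the likelihood ratio test, DESeq2 (1.42.0), other scalings, filters, thresholds and class rules, and left out each sample in turn.

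Named were, in each division, the 4 called genes with the largest absolute interaction among those with enough reads. These had a mean of at least 1 CPM and more than 3 reads in at least 1 sample of each group. Also named were, in each family, up to 2 called members with the lowest p, every clock gene and *JAC1*. Other members named were chosen after their values were seen. Members, families and lists were chosen with earlier results of these data known.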

Additional observations from a re-analysis of the deposited data

Results flagged for a closer look

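The UV-C response differed between *jac1* and the wild type in 780 nuclear genes by the test of the difference itself. In 20 of them each genotype's own response also passed the same thresholds and the samples lay apart in opposite directions. The interactions with the largest size among these 20 were -6.06 for AT3G09450, -5.16 for AT1G26790, 5.15 for *PRR5*, 4.59 for AT3G62550, 4.50 for AT5G41590 and 4.12 for *CCL*. AT1G26790, *PRR5*, AT3G62550 and AT3G09450 are described above with their samples. AT5G41590 had log2 fold changes of 1.90 in *jac1* and -2.60 in the wild type. *CCL* had log2 fold changes of 2.27 in *jac1* and -1.86 in the wild type.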

How the results depend on the processing

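Of the 780 called genes, 523 were called in all 12 fits that each left out a sample, and 439 in every alternative except edgeR's test against a minimum fold. Leaving out a sample gave 665 to 778 called genes, 372 to 440 positive and 276 to 352 negative (53.4% to 58.5% positive), 221 to 268 stronger, 51 to 93 weaker and 385 to 446 opposite, and a median interaction of -0.01 to 0.01. The likelihood ratio test called 1058 genes, 151 of them weaker, and a false discovery rate of 0.05 gave 1066 with 114 weaker. Library size alone gave 36.3% positive and a median of -0.16. The test against the minimum fold called 128 (91 positive, 37 negative, 71.1% positive; 34 stronger, 6 weaker, 88 opposite). With no minimum fold 2695 were called (1671 positive, 1024 negative; 1171 stronger, 230 weaker, 1294 opposite). Counting opposite signs only where each response passed a false discovery rate of 0.01 gave 476 stronger, 153 weaker and 151 opposite genes, and only where both exceeded 0.5 gave 476, 154 and 150.

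Between samples with equal title numbers, correlations of deviations ranged from -0.12 to 0.25, against -0.24 to 0.15 between unequal numbers. For equal numbers in the non-treated *jac1* and wild-type groups they were 0.25, 0.08 and 0.15, all positive. In the UV-C treated groups they were -0.01, -0.12 and -0.04. Between treatments, equal numbers gave 0.008, 0.15 and 0.07 in the wild type and 0.03, 0.02 and 0.08 in *jac1*, all positive. Pairs with equal numbers that differed in both genotype and treatment had values of both signs. The main fit used no pairing. With the number of the titles as a replicate block 794 genes were called. With the number of the library names as a block 589 were called, 234 negative, 170 stronger and 47 weaker.

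Direction turned in 3 clock genes that were not called: *PRR9* to -0.22 and *PRR7* to -0.30 by the likelihood ratio test, *PRR9* to -2.33 and *PRR7* to -0.43 without replicate 3 of the non-treated wild type, and *LNK1* to 0.15 without replicate 1 and 0.11 without replicate 2 of that group. Over all fits leaving out a sample *PRR9* ranged from -2.33 to 4.23, *PRR7* from -0.43 to 0.84 and *LNK1* from -2.20 to 0.15. The cause was not tested. Among values of 131 named genes under 24 alternatives, 2879 kept direction and side of the threshold, 252 lost the threshold, 4 gained it and 6 turned direction; *FKF1* could not be tested in the 3 fits that left out a non-treated wild-type sample. The likelihood ratio test called *LNK1* (-1.94).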
